A study of Mus musculus with 8 samples.

Results

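Clustered zinc finger genes were taken as the autosomal protein-coding genes of the mouse whose symbol begins with Zfp and whose start lies in the same 100-kb bin as the start of at least 1 more such gene. By this rule 172 of the 388 autosomal Zfp genes of GENCODE vM21 (mm10) were clustered, and they occupied 71 of the 23972 bins that were scored in every library. The remaining 216 are called lone Zfp genes here. The 71 bins lay on 13 of the 19 autosomes, with 26 bins on chromosome 7, 12 on chromosome 17, 8 on chromosome 13, 5 on chromosome 6 and 4 on chromosome 11. They held 2 Zfp starts in 47 bins, 3 in 19 bins, 4 in 4 bins and 5 in 1 bin. Joining bins whose neighbouring starts were no more than 1 Mb apart gave 31 local clusters, of which Zfp712 to Zfp493 on chromosome 13 held 21 genes in 7 bins.

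Zfp genes mostly encode proteins with tandem C2H2 zinc fingers, each of which can contact a few bases of DNA. Many of these proteins carry a KRAB domain, which binds the corepressor TRIM28 and through it brings in SETDB1, the methyltransferase that deposits H3K9me3. KRAB zinc finger genes arose largely by tandem duplication, many of their proteins bind retrotransposons, and the gene clusters are themselves known to carry H3K9me3 over the exons that encode the fingers. G9a and GLP, the enzymes that UNC0642 inhibits, deposit H3K9me2, and SUV39H1 and SUV39H2 act mainly at pericentromeric repeats.

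The scores came from Hi-C, which counts contacts between loci in fixed nuclei, in 8 libraries of mouse embryonic stem cells (mESCs), 1 per group. The Setdb1 groups all came from the conditional knockout line #33-6. Setdb1 WT received neither agent, Setdb1 WT + UNC received UNC0642 at 2 µM for 3 days, and Setdb1 KO received 4-hydroxytamoxifen (4-OHT) at 800 nM for 5 days to remove SETDB1. Setdb1 KO + UNC received 4-OHT at 800 nM for 2 days before the 3 days of UNC0642. Suv39h WT and Suv39h WT + UNC came from the wild-type line ADF1-26, and Suv39h DKO and Suv39h DKO + UNC from line ADF157, which lacks SUV39H1 and SUV39H2, with UNC0642 at the same dose and time. Each Suv39h genotype is 1 line, so that line and genotype cannot be told apart. Setdb1 KO and Setdb1 KO + UNC alone received 4-OHT, so that SETDB1 loss and 4-OHT cannot be told apart either. Their days on 4-OHT differed (5 and 2), so that UNC0642 in Setdb1 KO changed together with 4-OHT. Whether a score file holds 1 repeat of the Hi-C or a pool is not stated in the sources used here, and the scores carry no read counts. The study lists read numbers per Hi-C repeat, which are not used here because it is not stated which repeats a score file holds. With 1 library per group, a difference between 2 libraries has no replicate check.

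The score is the first eigenvector of the contact map of a chromosome. It is positive in the active A compartment and negative in the inactive B compartment, it has no unit, and it averages 0 over each chromosome, so that a difference describes a position relative to the rest of that chromosome. A bin is said to have risen or fallen where its score differed by at least 0.01, the change by which the study classed bins. Comparisons that use the same library as control share that library's error. Where 4 scores are listed for a line, they stand in the order wild type, wild type with UNC0642, knockout, knockout with UNC0642.

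The library labelled Setdb1 WT + UNC went against its line. Over the 71 bins its score correlated with the 3 other Setdb1 libraries at r = 0.890 to 0.945 and with the 4 Suv39h libraries at r = 0.941 to 0.960, correlations across bins that share base composition and gene content. In 30 of the 71 bins the 3 other Setdb1 libraries lay wholly outside the range of the 4 Suv39h libraries, above it in 29 of them. In 20 of these 30 bins, 66.7%, the library labelled Setdb1 WT + UNC was nearer to the Suv39h mean, against 60.0% of 6483 such bins genome-wide. The same count for each of the other 7 libraries was 0 to 8 of 13 to 17 bins, highest in Suv39h DKO + UNC (8 of 17, 47.1%) and Suv39h WT + UNC (6 of 14, 42.9%), against 16.6% to 40.2% genome-wide. These 7 counts keep the library labelled Setdb1 WT + UNC among the Setdb1 libraries, and are not a like background for it. For SETDB1 loss under UNC0642, the values against untreated Setdb1 WT are therefore given as well. UNC0642 in Setdb1 WT cannot be computed without this library, and is set beside the 3 other UNC0642 pairs.

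The sequences below are the 250 bases upstream of the RefSeq start of 6 member genes. They were chosen because Zfp459, Zfp874a, Zfp874b and Zfp760 start in 2 of the 3 bins with the largest mean rise after SETDB1 loss among the bins that were higher in both pairs, and Zfp119a and Zfp959 start in the member bin with the lowest mean score. Each is written 5′ to 3′ on the strand of its gene in GRCm38.p6, with CpG dinucleotides in capitals. Zfp459 (chr13:67421419-67421668, minus strand), Zfp874a (chr13:67451625-67451874, minus strand) and Zfp874b (chr13:67484254-67484503, minus strand) share a bin. Zfp760 lies on chromosome 17 (chr17:21707491-21707740, plus strand), as do Zfp119a (chr17:55878954-55879203, minus strand) and Zfp959 (chr17:55891843-55892092, plus strand), which are transcribed away from each other. The third of these bins, Zfp935 and Zfp934, is not shown. The mean over both pairs uses the library labelled Setdb1 WT + UNC.
Zfp459: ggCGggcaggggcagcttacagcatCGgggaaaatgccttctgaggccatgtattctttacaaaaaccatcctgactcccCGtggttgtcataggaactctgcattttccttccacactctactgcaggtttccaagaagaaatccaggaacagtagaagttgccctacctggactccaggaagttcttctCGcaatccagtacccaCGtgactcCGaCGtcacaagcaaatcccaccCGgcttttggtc
Zfp874a: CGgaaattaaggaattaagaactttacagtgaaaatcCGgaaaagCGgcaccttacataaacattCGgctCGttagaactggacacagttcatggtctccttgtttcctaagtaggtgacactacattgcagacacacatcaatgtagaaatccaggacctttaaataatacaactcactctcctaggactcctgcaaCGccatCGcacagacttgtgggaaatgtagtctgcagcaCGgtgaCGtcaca
Zfp874b: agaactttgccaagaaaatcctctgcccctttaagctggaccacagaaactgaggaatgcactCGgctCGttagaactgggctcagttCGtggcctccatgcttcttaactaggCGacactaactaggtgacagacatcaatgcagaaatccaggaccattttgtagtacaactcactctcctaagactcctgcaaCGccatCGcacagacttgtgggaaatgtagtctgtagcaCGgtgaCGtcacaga
Zfp760: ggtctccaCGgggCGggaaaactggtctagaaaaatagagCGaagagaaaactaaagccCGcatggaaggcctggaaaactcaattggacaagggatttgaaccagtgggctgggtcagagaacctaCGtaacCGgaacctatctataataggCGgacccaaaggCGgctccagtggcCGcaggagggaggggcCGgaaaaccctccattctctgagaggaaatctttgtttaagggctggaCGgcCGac
Zfp119a: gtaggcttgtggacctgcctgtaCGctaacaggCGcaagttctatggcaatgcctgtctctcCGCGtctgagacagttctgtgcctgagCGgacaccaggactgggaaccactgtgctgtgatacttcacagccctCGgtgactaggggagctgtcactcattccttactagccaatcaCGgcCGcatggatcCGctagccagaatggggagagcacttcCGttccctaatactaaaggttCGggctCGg
Zfp959: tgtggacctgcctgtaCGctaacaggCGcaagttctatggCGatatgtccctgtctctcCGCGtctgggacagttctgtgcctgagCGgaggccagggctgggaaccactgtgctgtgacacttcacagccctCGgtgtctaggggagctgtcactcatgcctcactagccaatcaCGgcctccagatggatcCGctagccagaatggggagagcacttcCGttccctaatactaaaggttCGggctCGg
The promoters of Zfp119a and Zfp959 were identical at 91.1% of 257 aligned positions and those of Zfp874a and Zfp874b at 76.2% of 252, whereas the 13 other pairs among these 6 promoters reached 43.3% to 52.7%. Zfp119a, Zfp959 and Zfp760 held 12 CpG dinucleotides each, Zfp874a held 9, and Zfp459 and Zfp874b held 8 each. A RefSeq promoter was matched for 147 of the 172 clustered genes, with a median of 9 CpG dinucleotides in 250 bases, against 12 over 174 lone Zfp genes and 6 over 25748 autosomal RefSeq promoters. At least 10 CpG dinucleotides stood in 47.6%, 58.0% and 38.3% of these promoters. Of the 147 matched clustered genes, 134 had a RefSeq start within 1000 bases of the GENCODE start.

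Clustered Zfp genes lay mostly in the A compartment. In Setdb1 WT, 65 of the 71 bins had a positive score, a share of 91.5% (95% Wilson interval 82.8% to 96.1%, which covers counting error only and treats neighbouring bins as independent). The other Setdb1 libraries had shares of 90.1%, 88.7% and 90.1%, and the Suv39h libraries 87.3%, 85.9%, 85.9% and 85.9%. Lone Zfp bins reached 76.8% to 80.6%, bins with at least 2 protein-coding starts and no Zfp start 77.1% to 79.2%, and all bins 44.5% to 46.3%. Clusters of olfactory receptor genes, another tandemly duplicated family, were in A in 10.9% to 15.1% of 284 bins. Counting bins by all libraries, 56 of the 71 clustered Zfp bins were in A in all 8, 5 were in B in all 8, and 10 (14.1%, against 3127 of all 23972 bins) held both signs. Of all bins, 38.9% were in A and 48.0% in B in all 8 libraries, and of bins with at least 2 protein-coding starts and no Zfp start 74.2% and 18.4%, against 78.9% and 7.04% of the members.

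The mean score over the 71 bins was 0.0261, 0.0222, 0.0262 and 0.0274 in the Setdb1 libraries and 0.0220, 0.0218, 0.0210 and 0.0203 in the Suv39h libraries. The library labelled Setdb1 WT + UNC was nearer to Suv39h WT than to any library of its own line. Within 1 library the bins varied with an SD of 0.0164 to 0.0185.

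**Figure D1:**
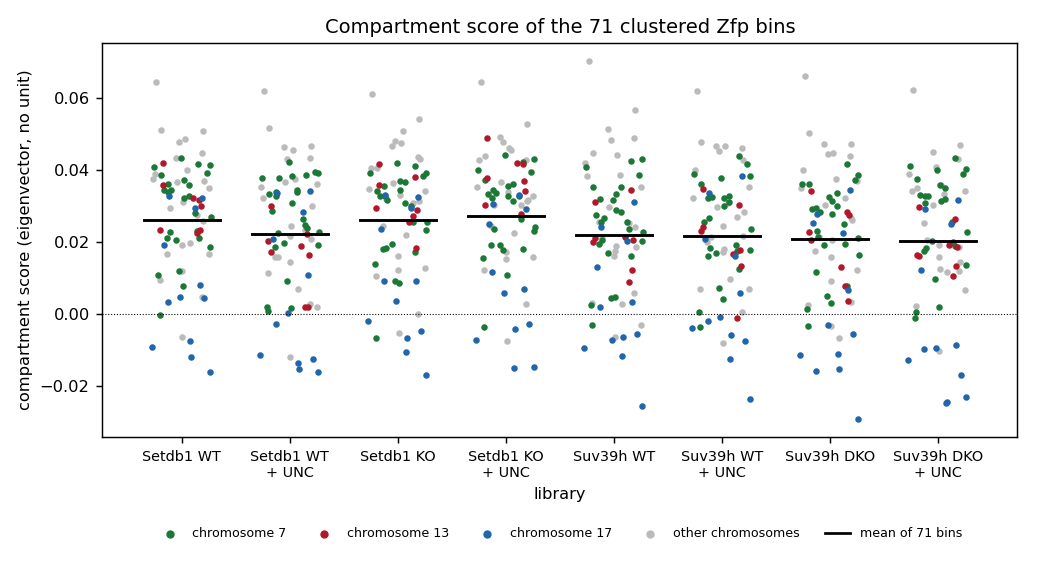
Compartment score (vertical axis, no unit) of each of the 71 clustered Zfp bins in the 8 libraries, coloured by chromosome, with the mean over bins as a bar. Most points lie above 0 in every library, with means from 0.0203 to 0.0274, and chromosome 17 holds 4 of the 5 bins that are negative in all 8 libraries.

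By the number of Zfp starts, the median score over the 8 libraries was 0.0241 for 2 starts, 0.0273 for 3 and 0.0323 for the 5 bins with 4 or 5. The highest bin, Zfp623 and Zfp707 on chromosome 15 (chr15:75900001-76000000), scored 0.0645, 0.0619, 0.0612 and 0.0644 in the Setdb1 libraries and 0.0702, 0.0618, 0.0660 and 0.0621 in the Suv39h libraries. The lowest bin, Zfp119a and Zfp959 (chr17:55800001-55900000), scored −0.0159, −0.0160, −0.0170 and −0.0146 in the Setdb1 libraries and −0.0255, −0.0234, −0.0291 and −0.0230 in the Suv39h libraries. It was in B in every library, and the 2 lines did not overlap. Also in B in all 8 were Zfp442 and Zfp345 on chromosome 2, Zfp955a and Zfp955b, Zfp944 and Zfp758, and Zfp995, Zfp942 and Zfp943 on chromosome 17.

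Bins also differed by the proteins their genes encode. The core of the KRAB A-box, searched as LY, 2 residues, VM, 1 residue and E in the translated longest coding sequence, so that a domain with a diverged core counts as absent, was present in 113 of 172 clustered genes (65.7%) and in 80 of 216 lone Zfp genes (37.0%). Clustered genes encoded a median of 11 C2H2 fingers and lone ones 9, with Zfp729b at 30 and Zfp729a at 27 among the clustered. The lowest count was 0 in each set. The 39 bins in which every Zfp gene held the KRAB core had a mean score of 0.0163, and 9 of them a negative mean. The 18 bins in which none held it had a mean of 0.0319 and the 14 mixed bins 0.0321, with no negative bin in either. Bins in which every gene held the core were also lower in GC, with a median of 41.2% against 45.7% in bins without the core, and the part of GC content in the difference was not tested. Leaving out chromosomes 13 and 17, the means were 0.0214 over 22 bins in which every gene held the core and 0.0323 over 17 bins without it.

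Clusters of different chromosomes held different places. By library, the mean of the 5 bins of chromosome 6 ran from 0.0365 to 0.0424 and that of the 26 bins of chromosome 7 from 0.0233 to 0.0286. The 4 bins of chromosome 11 ran from 0.0116 to 0.0181. Chromosomes 13 and 17 are described below, since their means moved most among the chromosomes with at least 4 member bins.

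**Figure D2:**
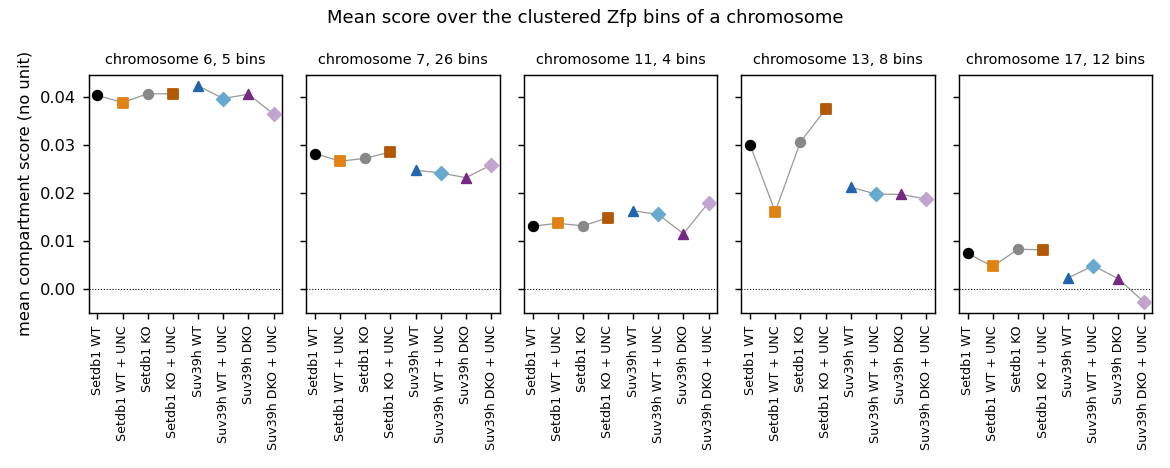
Mean compartment score (vertical axis, no unit) of the clustered Zfp bins of each of the 5 chromosomes with at least 4 such bins, in the 8 libraries (1 point each). Chromosome 6 is highest (0.0365 to 0.0424) and chromosome 17 lowest (−0.00256 to 0.00837), and on chromosome 13 the library labelled Setdb1 WT + UNC (0.0162) lies below all others.

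The chromosome 7 clusters hold genes of known function. Zfp27, Zfp383, Zfp74 and Zfp568, the last of which encodes a repressor of a placental Igf2 transcript, share a bin (chr7:29900001-30000000) that scored 0.0362, 0.0327, 0.0356 and 0.0323 in the Setdb1 libraries and 0.0321, 0.0322, 0.0296 and 0.0329 in the Suv39h libraries. The bin with the next 4 genes, Zfp14, Zfp82, Zfp566 and Zfp260, scored between 0.0333 and 0.0386. Neither changed by 0.01 in any comparison. The bin of Zfp324 and Zfp446, where GENCODE also places the start of Trim28, the KRAB corepressor gene, scored 0.0344, 0.0287, 0.0328 and 0.0335 and then 0.0276, 0.0256, 0.0293 and 0.0331. RefSeq places the Trim28 start in the neighbouring bin.

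Clustered Zfp bins stood above their surroundings. Over the 8 libraries their mean was 0.0234, against 0.0123 for the bins without a Zfp start within 1 Mb, and 53 of 71 lay above that local mean. Gene density moved with this, from a mean of 3.73 protein-coding starts per bin at the members to 2.66 at 100 kb, and its part in the contrast was not tested. Bins with at least 2 protein-coding starts and no Zfp start averaged 0.0214. The contrast was widest among the larger chromosomes on chromosome 13, where members averaged 0.0243 and their surroundings −0.0160, with 7 of 8 above. It was 0.0400 against 0.0154 on chromosome 6 (5 of 5) and 0.0261 against 0.0157 on chromosome 7 (20 of 26). On chromosome 17 the members were lower, at 0.00449 against 0.00857 (6 of 12 above), and on chromosome 11 at 0.0146 against 0.0172 (2 of 4).

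**Figure D3:**
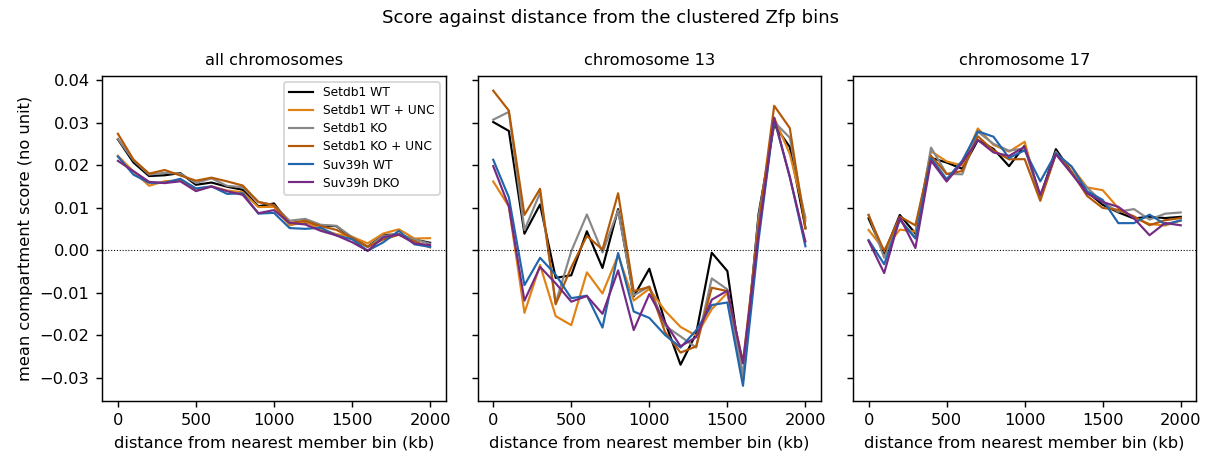
Mean compartment score (vertical axis, no unit) by distance from the nearest clustered Zfp bin (horizontal axis, up to 2 Mb), for all members and for those of chromosomes 13 and 17, in 6 libraries (1 line each). Suv39h WT + UNC and Suv39h DKO + UNC are not drawn. Over all members the mean of the 8 libraries is 0.0234 at distance 0, 0.0099 at 1000 kb and 0.0017 at 2000 kb.

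SETDB1 is the enzyme that KRAB zinc finger proteins bring in, and its loss was compared in 2 pairs that share no library. Without UNC0642, the mean over the 71 bins was higher by 0.00011 in Setdb1 KO. Above Setdb1 WT were 32 bins (45.1%, against 48.6% of all bins), and 39 were below. Only the bin of Zfp809 and Zfp599 rose, against 1.4% of all bins, and only that of Zfp397 and Zfp35 fell, against 0.88% of all bins. Under UNC0642, 16 bins rose and 0 fell between Setdb1 WT + UNC and Setdb1 KO + UNC, against 7.16% and 5.79% of all bins, and the mean was higher by 0.00517. The share of members that rose, 22.5%, stood beside 19.4% of lone Zfp bins and 15.8% of olfactory receptor bins. The mean without UNC0642 was near 0, and its sign changed with 7 of the alternatives tried. Leaving out chromosome 13, the mean under UNC0642 was higher by 0.00311. Over all 71 bins, but relative to the bins without a Zfp start within 1 Mb, it was higher by 0.00214. This second pair rests on the library labelled Setdb1 WT + UNC. Against Setdb1 WT instead, Setdb1 KO + UNC was higher by 0.00132 on average, 2 bins rose and 0 fell (1.46% and 1.18% of all bins). No bin rose or fell in both pairs (0.567% and 0.129% of all bins did).

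Zfp809 binds the primer binding site of a murine retrovirus and recruits TRIM28 there. Its bin with Zfp599 (chr9:22200001-22300000) scored 0.0400, 0.0374, 0.0510 and 0.0456 in the Setdb1 libraries and 0.0386, 0.0310, 0.0376 and 0.0334 in the Suv39h libraries. Both Setdb1 KO libraries lay above the other 6. The differences were 0.0110 without and 0.00815 under UNC0642. Zfp397 and Zfp35 on chromosome 18 scored 0.0512, 0.0517, 0.0405 and 0.0438 and then 0.0448, 0.0479, 0.0504 and 0.0350, so that both Setdb1 KO libraries were below both Setdb1 WT libraries.

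Counted by rank, both Setdb1 KO libraries exceeded both Setdb1 WT libraries in 24 of 71 bins (33.8%), against 30.3% of lone Zfp bins, 35.6% of olfactory receptor bins and 4556 of all 23972 bins. The reverse order held in 11 bins (15.5%, against 21.8% of all bins). Bins in which every Zfp gene held the KRAB core were higher by 0.00115 on average without UNC0642 and by 0.00807 under it, but by 0.00253 in Setdb1 KO + UNC against untreated Setdb1 WT. The same mean changes of bins without the core were −0.00113, −5.08e-05 and −0.000600. With chromosomes 13 and 17 left out, bins in which every gene held the core were higher by 0.00570 under UNC0642, and by 0.00187 against untreated Setdb1 WT.

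Among the 5 chromosomes with at least 4 member bins, chromosome 13 had the widest range of means over the 8 libraries. Its 8 bins averaged 0.0301, 0.0162, 0.0307 and 0.0375 in the Setdb1 libraries and 0.0213, 0.0199, 0.0198 and 0.0188 in the Suv39h libraries. The library labelled Setdb1 WT + UNC was the lowest of the Setdb1 libraries in all 8 bins (39 of 71 members and 30.8% of all bins), and in the 7 bins where the lines were otherwise apart it was nearer to the Suv39h mean in 7. The Zfp935 and Zfp934 bin (chr13:62500001-62600000) scored 0.0227, 0.00199, 0.0274 and 0.0278 and then 0.00889, −0.00108, 0.00779 and 0.0106. The other 3 Setdb1 libraries lay above the Suv39h libraries there, and Setdb1 WT + UNC inside their range.

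Zfp459, Zfp874a and Zfp874b (chr13:67400001-67500000), whose promoters are printed above, scored 0.0317, 0.0222, 0.0380 and 0.0417 and then 0.0346, 0.0304, 0.0285 and 0.0265. Both knockouts were the 2 highest libraries. The bin with the most Zfp starts, holding Zfp457, Zfp595, Zfp953, Zfp456 and Zfp429 (chr13:67300001-67400000), scored 0.0323, 0.0190, 0.0257 and 0.0421 and then 0.0214, 0.0166, 0.0133 and 0.0193, so that Setdb1 KO was below Setdb1 WT while Setdb1 KO + UNC was the highest. Zfp729b, Zfp729a and Zfp738 (chr13:67600001-67700000), with the longest finger arrays, scored 0.0233, 0.00209, 0.0185 and 0.0371 and then 0.0124, 0.0179, 0.00379 and 0.0134. It had the same order of Setdb1 libraries, and the largest rise of any member after SETDB1 loss under UNC0642, 0.0350, which was 0.0138 against untreated Setdb1 WT.

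The difference on chromosome 13 was not limited to the members. Between Setdb1 WT and Setdb1 WT + UNC the mean change was −0.0140 over the 8 bins and −0.0102 over their surroundings within 1 Mb. Between Setdb1 WT + UNC and Setdb1 KO + UNC it was 0.0213 and 0.0116, and between untreated Setdb1 WT and Setdb1 KO + UNC 0.00737 and 0.00139.

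**Figure D4:**
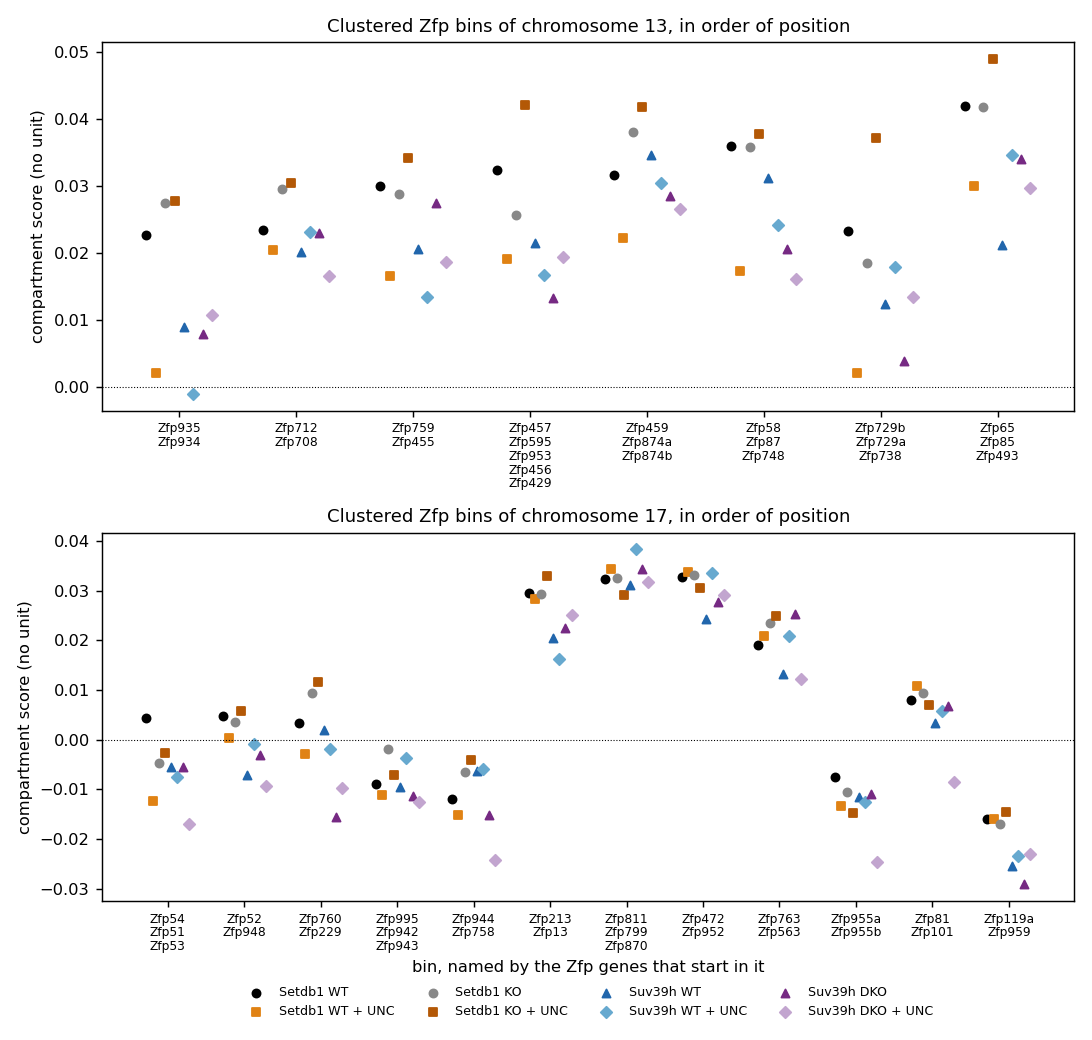
Compartment score (vertical axis, no unit) of each clustered Zfp bin of chromosomes 13 and 17 in the 8 libraries. On chromosome 13 the Setdb1 WT + UNC points are the lowest of the Setdb1 libraries in all 8 bins, and on chromosome 17 scores lie on both sides of 0.

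UNC0642 was compared in 4 pairs. In Setdb1 WT, 0 bins rose and 10 fell, against 3.51% and 4.62% of all bins, with a mean change of −0.00385 and 51 of 71 bins below. The same was true of 11598 of all 23972 bins, 139 of 211 lone Zfp bins and 194 of 284 olfactory receptor bins, which were also below. Lone Zfp bins fell in 34 of 211 (16.1%) and gene-rich bins without Zfp in 5.42%. Of the 10 clustered bins, 6 were on chromosome 13, 2 on chromosome 4 (Zfp988 and Zfp978, and Zfp984 and Zfp933), 1 on chromosome 9 (Zfp26 and Zfp426) and 1 on chromosome 17 (Zfp54, Zfp51 and Zfp53). Without chromosome 13 the mean change was −0.00256. Over all 71 bins, but relative to the bins without a Zfp start within 1 Mb, it was −0.00169. By protein, the mean change was −0.00554 where every Zfp gene held the KRAB core, −0.00338 in mixed bins and −0.000549 in bins without the core. Whether UNC0642 or the likeness of this library to the other line sets these values cannot be told apart.

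The 3 other pairs had mean changes nearer to 0. In Setdb1 KO, 2 bins rose and 1 fell (0.755% and 0.934% of all bins), with a mean change of 0.00121. This pair also differed in days on 4-OHT, so that UNC0642 and 4-OHT cannot be told apart in it. In Suv39h WT, 1 rose and 1 fell (2.26% and 2.53% of all bins), with a mean change of −0.000188. In Suv39h DKO, 2 rose and 7 fell (3.04% and 3.69% of all bins), with a mean change of −0.000688. The 2 that rose in Setdb1 KO were the Zfp457 and Zfp729b bins of chromosome 13, by 0.0164 and 0.0186. Over all 4 pairs, 6 bins were higher in each and 7 lower in each (8.45% and 9.86%, against 6.79% and 5.94% of all bins), among the latter Zfp809 and Zfp599, with −0.00257 in Setdb1 WT, −0.00542 in Setdb1 KO, −0.00762 in Suv39h WT and −0.00416 in Suv39h DKO.

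SUV39H1 and SUV39H2 loss gave mean changes of −0.00101 without UNC0642 and −0.00151 under it. Without UNC0642, 3 bins rose and 2 fell (3.64% and 3.73% of all bins), and under it 2 rose and 6 fell (2.98% and 3.86% of all bins). No bin rose or fell in both pairs (0.35% and 0.509% of all bins did). Both Suv39h DKO libraries lay above both Suv39h WT libraries in 4 of 71 bins (5.63%, against 17.5% of lone Zfp bins and 20.6% of all bins) and below both in 11 (15.5%, against 19.3% of all bins). On chromosome 13, the Zfp58, Zfp87 and Zfp748 bin scored 0.0312, 0.0242, 0.0205 and 0.0161 in the Suv39h libraries, both DKO values below both WT values.

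Of the 31 local clusters, Zfp54 to Zfp758 on chromosome 17 had the mean score nearest to 0. This cluster (chr17:21400001-22400000, 5 bins, 12 genes) averaged −0.00166, −0.00827, −1.74e-05 and 0.000717 in the Setdb1 libraries and −0.00531, −0.00393, −0.0101 and −0.0146 in the Suv39h libraries. Both Setdb1 KO values were above both Setdb1 WT values, and both Suv39h DKO values below both Suv39h WT values. The Zfp811 to Zfp101 cluster (chr17:32800001-33400000, 5 bins, 11 genes) averaged 0.0170, 0.0173, 0.0176 and 0.0154 and then 0.0121, 0.0172, 0.0167 and 0.00798, without such an order.

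Within the first of these clusters, the Zfp760 and Zfp229 bin (chr17:21700001-21800000) scored 0.00341, −0.00282, 0.00936 and 0.0116 and then 0.00189, −0.00186, −0.0156 and −0.00973. It rose after SETDB1 loss under UNC0642 by 0.0144 (0.00819 against untreated Setdb1 WT, below 0.01) and fell by 0.0175 after SUV39H1 and SUV39H2 loss without UNC0642. The Zfp944 and Zfp758 bin (chr17:22300001-22400000) scored −0.0120, −0.0152, −0.00649 and −0.00399 and then −0.00638, −0.00589, −0.0152 and −0.0242. Its knockouts stood in the same order, with changes of 0.0112 after SETDB1 loss (0.00796 against untreated Setdb1 WT, below 0.01) and −0.0183 after SUV39H1 and SUV39H2 loss, both under UNC0642. The effects of the 2 knockouts belong to different lines, and the difference between them was not tested.

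**Figure D5:**
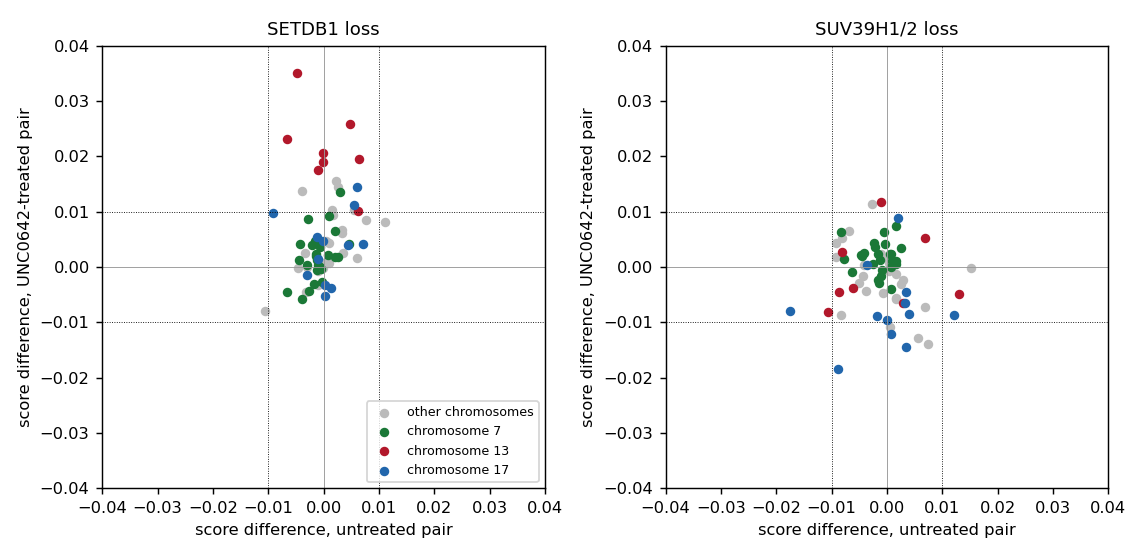
Score difference (knockout minus wild type, no unit) of each clustered Zfp bin in the untreated pair (horizontal axis) against the UNC0642-treated pair (vertical axis), for SETDB1 loss (left) and SUV39H1/2 loss (right), with points coloured by chromosome and dotted lines at 0.01 either way. On the left 16 bins lie above 0.01 in the treated pair, which uses the library labelled Setdb1 WT + UNC, and 1 does in the untreated pair, while no bin passes 0.01 in both.

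The 2 untreated wild types also differed. Against Setdb1 WT, 0 bins rose and 11 (15.5%) fell in Suv39h WT (5.68% and 6.27% of all bins), with a mean change of −0.00404. Lone Zfp bins rose in 2.84% and fell in 18.5%. Gene-rich bins without Zfp did so in 2.93% and 8.50%, and olfactory receptor bins in 1.41% and 9.86%. All 4 Setdb1 libraries lay above all 4 Suv39h libraries in 11 bins (15.5%, against 6.50% of all bins) and below them in 1 (6.57% of all bins). The largest falls were at Zfp65, Zfp85 and Zfp493 on chromosome 13 (−0.0208) and at Zfp988 and Zfp978 on chromosome 4 (−0.0197).

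A limma fit over all 23972 bins, which estimated the spread from the 8 libraries together, called 0 members. It called 0.0% of all bins for UNC0642, for SETDB1 loss, for SUV39H1 and SUV39H2 loss and for the difference in UNC0642 effect between lines. Its p-values measure only the spread between these libraries, and with 3 residual degrees of freedom, or 2 for the difference between lines, a missed threshold does not show that bins were alike. That spread is how far the UNC0642 difference varied between backgrounds, and it holds no replicates. Pooling over bins added 7.24 prior degrees of freedom, or 7.15 for the difference between lines. At an unadjusted p under 0.05, SETDB1 loss had 11 members higher and 0 lower (5.16% and 3.94% of all bins), but 2 higher (2.19% of all bins) without Setdb1 WT + UNC. SUV39H1 and SUV39H2 loss had 0 higher and 4 lower (4.76% and 4.85% of all bins), and UNC0642 0 and 4 (2.30% and 2.65% of all bins). Without the library labelled Setdb1 WT + UNC, the UNC0642 counts were 4 higher and 2 lower (2.61% and 2.97% of all bins). For SETDB1 loss, limma gave the Zfp459 bin 0.0129 ± 0.00332 (SE, adjusted p = 0.334) and the Zfp809 bin 0.00957 ± 0.00269 (adjusted p = 0.345). The mean of both Setdb1 KO libraries minus untreated Setdb1 WT, which leaves out Setdb1 WT + UNC, was 0.00816 and 0.00829 in these bins. For SUV39H1 and SUV39H2 loss it gave the Zfp944 bin −0.0136 ± 0.00321 (adjusted p = 0.357) and the Zfp760 bin −0.0127 ± 0.00333 (adjusted p = 0.358).

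Changes of compartment were few and depended on the centring of the scores. SETDB1 loss without UNC0642 moved 0 bins into A and 2 into B (1.71% and 1.51% of all bins). UNC0642 in Setdb1 WT moved 1 into A and 2 into B (2.67% and 2.45% of all bins). SETDB1 loss under UNC0642 moved 1 and 1 (3.14% and 3.20% of all bins), and Setdb1 KO + UNC against untreated Setdb1 WT 0 and 1 (1.87% and 1.71% of all bins). SUV39H1 and SUV39H2 loss without UNC0642 moved 1 and 2 (2.92% and 1.71% of all bins). Of the other comparisons, Suv39h DKO + UNC against untreated Suv39h WT moved 2 and 3 (3.26% and 1.79% of all bins) and Suv39h WT against Setdb1 WT 0 and 3 (2.94% and 2.59% of all bins). SUV39H1 and SUV39H2 loss under UNC0642 moved 2 and 2 (2.87% and 1.72% of all bins). UNC0642 moved 1 and 0 in Setdb1 KO (1.55% and 1.59% of all bins). It moved 1 and 2 in Suv39h WT (2.13% and 1.79%) and 2 and 2 in Suv39h DKO (2.19% and 1.92%). With the chromosome mean that a unit-length eigenvector implies subtracted once more, UNC0642 in Setdb1 WT moved 0 into A and 5 into B, and SETDB1 loss under UNC0642 7 and 0. The shares of all bins at this centring were not computed, so these counts have no background. Among control scores at least 0.005 from 0, the first 5 comparisons named here moved 0 either way. Suv39h WT against Setdb1 WT, SUV39H1 and SUV39H2 loss under UNC0642 and UNC0642 in Suv39h WT still moved 1 each into B. UNC0642 in Suv39h DKO moved 1 into A and 1 into B. The bins of both signs included Zfp551 and Zfp606 on chromosome 7, which scored between −0.00664 and 0.00103, close to 0 in every library.

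The genes of the pathway itself lay in the A compartment. The bins of 24 genes of corepressors and H3K9 methylation, among them Trim28, Setdb1, Ehmt1 and Ehmt2 (GLP and G9a), were in A in all 8 libraries with a median of 0.0386. UNC0642 in Setdb1 WT lowered 2 of them by at least 0.01, those of Trim24 (−0.0129) and Smarcad1 (−0.0116), and raised 0. These counts rest on the library labelled Setdb1 WT + UNC, and 4.62% of all bins fell in that comparison. In the other UNC0642 pairs none of the 24 fell, and 2 rose in Suv39h WT (Trim33 by 0.0114 and Atf7ip2 by 0.0133), 1 in Setdb1 KO (Chd4 by 0.0117) and 0 in Suv39h DKO, where 2.26%, 0.755% and 3.04% of all bins rose. SETDB1 loss without UNC0642 changed 0. Under UNC0642 5 rose (7.16% of all bins), whereas 0 rose and 0 fell in Setdb1 KO + UNC against untreated Setdb1 WT. A list by symbol prefix (Zscan, Zkscan, Zbtb, Zik, Rsl and Rex) held 76 genes, most of them of other zinc finger families but also a few such as Rsl24d1 and Rsl1d1 that encode no zinc finger protein of this kind. Of these 76 genes, 61 were in A in all 8 libraries and 10 in B, with a median of 0.0283, beside the shares of 74.2% and 18.4% of gene-rich bins without Zfp given above. Counting genes, some of which share a bin (as Zkscan3, Zscan26 and Zkscan4 do), 2 fell and 0 rose with UNC0642 in Setdb1 WT, and 7 rose and 3 fell after SETDB1 loss under UNC0642. Of all bins, each counted once, 4.62% and 3.51% did so in the first comparison and 7.16% and 5.79% in the second. Without the library labelled Setdb1 WT + UNC, Setdb1 KO + UNC against untreated Setdb1 WT had 0 that rose and 1 that fell.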

How the data were processed

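Hi-C libraries of 8 mESC groups (DpnII) were processed by the authors with the 4DN Hi-C pipeline (version 43) on mm10, keeping alignments with mapping quality above 10. They deposited, for each library, a compartment score per 100-kb bin, the eigenvector of the KR-normalised map from Juicer Tools. The files hold no counts, and the read numbers the study lists per repeat were not used, since which repeats a file holds is not stated. A score is centred on 0 per chromosome, and its size depends on the whole chromosome.

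Gene starts were the 5′ ends in GENCODE vM21. Members and lists were chosen with earlier results of these data known. Bins scored in all 8 libraries were used, each once. Counts used a change of at least 0.01. limma 3.58.1 (R 4.3.3) was fitted to all bins with background as a block and Benjamini-Hochberg adjustment, and was tested on simulated data. Fingers and KRAB cores were searched in translated GENCODE coding sequences, and promoters came from RefSeq (GRCm38.p6).

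Named bins were those with the most Zfp starts, the 5 highest and 5 lowest by mean score, and, for each agent or knockout, the 3 largest rises and 3 largest falls among bins moving one way in every pair. Other bins were named after their values were seen: the Zfp729b, Zfp26, Zfp65, Zfp54, Zfp988 and Zfp984 bins. Alternatives covered scaling, centring, thresholds, bin size, weighting and libraries left out.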

Additional observations from a re-analysis of the deposited data

Results flagged for a closer look

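In 4 clustered Zfp bins UNC0642 lowered the score by at least 0.01 in one background and raised it by at least 0.01 in another. How many of all bins did so was not counted, so this count has no background. The difference between backgrounds was not tested bin by bin with replicates, and limma called 0 bins for the difference in UNC0642 effect between lines. That term does not compare Setdb1 WT with Setdb1 KO, which belong to the same line. All 4 falls rest on the library labelled Setdb1 WT + UNC. The rises in Setdb1 KO come from a pair that also differed in days on 4-OHT.

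The Zfp26 and Zfp426 bin changed by −0.0127 with UNC0642 in Setdb1 WT and by 0.0182 in Suv39h DKO. The bin of Zfp457, Zfp595, Zfp953, Zfp456 and Zfp429 changed by −0.0133 in Setdb1 WT and by 0.0164 in Setdb1 KO. The Zfp729b, Zfp729a and Zfp738 bin changed by −0.0212 in Setdb1 WT and by 0.0186 in Setdb1 KO. The Zfp65, Zfp85 and Zfp493 bin changed by −0.0120 in Setdb1 WT and by 0.0135 in Suv39h WT.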

How the results depend on the processing

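Of the recomputed mean changes over the clustered Zfp bins, 116 kept their direction and 16 reversed. SETDB1 loss without UNC0642 (0.00011) turned to −1.9e-05 with root-mean-square scaling, −0.000122 with quantile normalization, −0.000313 with the chromosome mean added back, −0.000630 over bins with at least 3 starts, −0.000103 counting each gene once, −0.130 percent by rank and −0.000399 relative to neighbouring bins. UNC0642 in Suv39h WT (−0.000188) turned to 8.13e-05 with the chromosome mean subtracted, 0.000281 over bins with at least 3 starts, 0.000207 counting each chromosome once, 0.000102 over 500 kb and 2.28e-05 with starts at the lower coordinate. SUV39H1 and SUV39H2 loss without UNC0642 turned to 0.000235 counting each chromosome once. UNC0642 in Suv39h DKO turned to 0.000908 with the mean added back, 0.000686 over bins with at least 3 starts and 5.5e-05 relative to neighbouring bins. The share in A became 77.5% in Setdb1 WT + UNC and 76.1% in Suv39h WT with the mean subtracted, and, with it added, 95.8% in both Setdb1 KO libraries and 94.4% in Suv39h WT + UNC. With the untreated wild type as control of both knockouts, SUV39H1 and SUV39H2 loss lowered 2 bins in both pairs. The share of all bins with this control was not computed. All 25 alternative limma settings called 0 members. The cause of these shifts was not tested. The lower coordinate, the neighbouring bins and leaving out chromosome 13 were chosen after seeing the data. No paired analysis was possible because the labels give no replicate numbers to pair by, with 1 library per group, beyond the block on background that the limma fit holds. Without that block UNC0642 called 0 members too. The counts behind a single score cannot be read from the files, so no counting error is given for it.

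The counts of single comparisons moved more. Of those recomputed, 47 of rising and 43 of falling bins stayed within 1.5 times and the rest did not, as given here, where SETDB1 loss and SUV39H1/2 loss alone stand for the pairs without UNC0642. All are counts of the members alone. The shares of all bins at these settings were not computed, so the counts have no background. With a threshold of 0.005, the bins that rose numbered 5 for Suv39h WT against Setdb1 WT, 6 for UNC0642 in Setdb1 KO, 7 for SUV39H1/2 loss, 9 for SETDB1 loss, SUV39H1/2 loss with UNC0642 against untreated and SUV39H1/2 loss under UNC0642, 13 for UNC0642 in Suv39h WT and UNC0642 in Suv39h DKO, 14 for SETDB1 loss with UNC0642 against untreated and 26 for SETDB1 loss under UNC0642. With a threshold of 0.005, the bins that fell numbered 3 for SETDB1 loss under UNC0642 and UNC0642 in Setdb1 KO, 4 for SETDB1 loss and SETDB1 loss with UNC0642 against untreated, 11 for UNC0642 in Suv39h WT, 14 for SUV39H1/2 loss, 18 for SUV39H1/2 loss under UNC0642 and UNC0642 in Suv39h DKO, 19 for SUV39H1/2 loss with UNC0642 against untreated, 21 for UNC0642 in Setdb1 WT and 25 for Suv39h WT against Setdb1 WT. With a threshold of 0.005, the bins that rose in both pairs numbered 1 for SUV39H1/2 loss and 7 for SETDB1 loss. With a threshold of 0.005, the bins that fell in both pairs numbered 1 for SETDB1 loss and 4 for SUV39H1/2 loss. With a threshold of 0.02, the bins that rose numbered 0 for SETDB1 loss, SETDB1 loss with UNC0642 against untreated, UNC0642 in Setdb1 KO, UNC0642 in Suv39h WT, SUV39H1/2 loss, SUV39H1/2 loss under UNC0642 and UNC0642 in Suv39h DKO and 4 for SETDB1 loss under UNC0642. With a threshold of 0.02, the bins that fell numbered 0 for SETDB1 loss, UNC0642 in Setdb1 KO, UNC0642 in Suv39h WT, SUV39H1/2 loss, SUV39H1/2 loss with UNC0642 against untreated, SUV39H1/2 loss under UNC0642 and UNC0642 in Suv39h DKO, 1 for Suv39h WT against Setdb1 WT and 2 for UNC0642 in Setdb1 WT. Over bins with at least 3 starts, the bins that rose numbered 0 for SETDB1 loss, SUV39H1/2 loss under UNC0642 and UNC0642 in Suv39h DKO, 1 for SUV39H1/2 loss and 6 for SETDB1 loss under UNC0642. Over bins with at least 3 starts, the bins that fell numbered 0 for SETDB1 loss, UNC0642 in Setdb1 KO, UNC0642 in Suv39h WT and SUV39H1/2 loss under UNC0642, 1 for SUV39H1/2 loss and UNC0642 in Suv39h DKO, 2 for SUV39H1/2 loss with UNC0642 against untreated, 4 for Suv39h WT against Setdb1 WT and 5 for UNC0642 in Setdb1 WT. With the chromosome mean added, the bins that rose numbered 2 for SUV39H1/2 loss with UNC0642 against untreated and 4 for UNC0642 in Suv39h DKO. With the chromosome mean added, the bins that fell numbered 3 for SUV39H1/2 loss with UNC0642 against untreated. With the chromosome mean added, the bins that moved into A numbered 0 for UNC0642 in Setdb1 WT, SUV39H1/2 loss with UNC0642 against untreated and SUV39H1/2 loss under UNC0642, 1 for SETDB1 loss, SETDB1 loss with UNC0642 against untreated and UNC0642 in Suv39h DKO, 2 for UNC0642 in Suv39h WT and 3 for SETDB1 loss under UNC0642. With the chromosome mean added, the bins that moved into B numbered 0 for SETDB1 loss, SETDB1 loss with UNC0642 against untreated and SETDB1 loss under UNC0642, 1 for UNC0642 in Setdb1 KO, UNC0642 in Suv39h WT and Suv39h WT against Setdb1 WT and 5 for SUV39H1/2 loss under UNC0642. With it subtracted, the bins that rose numbered 1 for SETDB1 loss with UNC0642 against untreated and 2 for UNC0642 in Suv39h WT. With it subtracted, the bins that fell numbered 11 for SUV39H1/2 loss under UNC0642 and UNC0642 in Suv39h DKO. With it subtracted, the bins that moved into A numbered 0 for UNC0642 in Setdb1 WT, 1 for SETDB1 loss, 2 for SETDB1 loss with UNC0642 against untreated, UNC0642 in Suv39h WT and SUV39H1/2 loss and 7 for SETDB1 loss under UNC0642. With it subtracted, the bins that moved into B numbered 0 for SETDB1 loss, SETDB1 loss with UNC0642 against untreated, SETDB1 loss under UNC0642 and SUV39H1/2 loss with UNC0642 against untreated, 1 for UNC0642 in Suv39h WT, SUV39H1/2 loss and SUV39H1/2 loss under UNC0642, 5 for UNC0642 in Setdb1 WT and 6 for Suv39h WT against Setdb1 WT. After quantile normalization, the bins that rose numbered 1 for SETDB1 loss with UNC0642 against untreated. After quantile normalization, the bins that fell numbered 2 for UNC0642 in Suv39h WT and 4 for SUV39H1/2 loss. After root-mean-square scaling, the bins that rose numbered 1 for SUV39H1/2 loss with UNC0642 against untreated and 2 for UNC0642 in Suv39h WT. With control scores at least 0.005 from 0, the bins that moved into A numbered 0 for UNC0642 in Setdb1 WT, SETDB1 loss under UNC0642, UNC0642 in Setdb1 KO, UNC0642 in Suv39h WT, SUV39H1/2 loss, SUV39H1/2 loss with UNC0642 against untreated and SUV39H1/2 loss under UNC0642 and 1 for UNC0642 in Suv39h DKO. With control scores at least 0.005 from 0, the bins that moved into B numbered 0 for UNC0642 in Setdb1 WT, SETDB1 loss, SETDB1 loss with UNC0642 against untreated, SETDB1 loss under UNC0642, SUV39H1/2 loss and SUV39H1/2 loss with UNC0642 against untreated and 1 for UNC0642 in Suv39h WT, SUV39H1/2 loss under UNC0642, UNC0642 in Suv39h DKO and Suv39h WT against Setdb1 WT.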
